A study of Caenorhabditis elegans with 6 samples.

Results

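The genes described here are the 10 of Caenorhabditis elegans that make and break down the storage sugars trehalose and glycogen, taken by name from the 47656 genes listed in each deposited table. They are tps-1, tps-2 and gob-1 for trehalose synthesis, the trehalase genes tre-1 to tre-5, the glycogen synthase gene gsy-1 and the glycogen phosphorylase gene pygl-1. RNA was sequenced from whole worms of the wild-type strain N2 at an age of 6 days, in 3 libraries from worms given D-mannose (mannose 1, 2 and 3) and 3 from worms given water (water 1, 2 and 3). Both groups grew on plates with Escherichia coli OP50 as food. The labels give no dose of mannose and do not say whether the libraries of a group came from separate cultures. A p-value here therefore sets the difference between groups against the spread between these libraries, which may be technical.

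Trehalose is a disaccharide of glucose that worms store and that protects them against drying and high salt. A trehalose 6-phosphate synthase joins UDP-glucose and glucose 6-phosphate, a phosphatase then removes the phosphate, and trehalases split trehalose back into glucose. Glycogen is the branched polymer of glucose: glycogenin primes it, glycogen synthase lengthens it from UDP-glucose, a branching enzyme branches it, and glycogen phosphorylase and a debranching enzyme take it apart. Both sugars therefore draw on the same pool of UDP-glucose, and mannose can enter that pool through fructose 6-phosphate.

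Each library was worth 39900000 to 46000000 reads, rounded. Values are called FPKM here and behave as fragments scaled by gene length and by 1 factor per library. Levels of different genes within a library can therefore be set beside each other. The library size implied by this factor was below the number of reads in mannose 1 and water 3. It was above that number in the other 4 libraries. The part of this scaling in the levels of mannose 1 and water 3 was not tested. Mannose 1 and water 3 were set apart from the other 4 libraries on earlier results of these data, and this split ran across the treatment. All 8 oocyte markers listed (oma-1, oma-2, rme-2, cpg-1, cpg-2, puf-5, egg-1 and cbd-1) had their 2 highest values in these libraries, as did 28.6% of the 11237 genes tested. None of the markers was at 0 in any library. Since the pair was chosen on these data, the markers describe it and do not test it. The summed oocyte marker level was 4447 FPKM in mannose 1 and 1089 to 2183 FPKM in mannose 2 and 3, against 5004 FPKM in water 3 and 1241 to 1607 FPKM in water 1 and 2. For the 6 intestine markers listed the sum was 3554 to 4496 FPKM in mannose and 3927 to 4402 FPKM across water libraries. Most of it came from vit-2 and vit-6. The 4 hypodermis and cuticle markers listed summed to 2082 to 2474 FPKM in mannose and 2727 to 3238 FPKM in water, without overlap. Nearly all of that sum is the adult collagen gene col-19, and the other markers (dpy-7, rol-6 and col-10) overlapped between the groups. The groups of col-19 did not overlap, as for 10.7% of all genes tested. Its difference did not pass the test described below (limma adjusted p = 0.9999). In whole worms, fewer cells of a type and less RNA per cell cannot be told apart.

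The genes differed widely in level. By the mean over 6 libraries, pygl-1 was highest (117.1 FPKM), followed by tre-1 (71.1), gsy-1 (61.4), tre-2 (34.5), gob-1 (13.9), tre-3 (9.94), tps-2 (4.61), tps-1 (1.93), tre-4 (1.60) and tre-5 (0.959). Most of this order was the same in every library, but the place of the glycogen genes was not. Within a library pygl-1 exceeded gsy-1 in 6 of 6, whereas it exceeded tre-1 only in mannose 1 and water 3, 2 of 6. The gene tre-1 exceeded gsy-1 in the other 4. The ranges of tps-1, tre-4 and tre-5 over libraries overlapped, as did those of gob-1 and tre-3, although in each of these pairs the order held in 6 of 6 libraries. Among the 11237 genes tested, the mean level of pygl-1 was at the 88.8th percentile, that of tre-1 at the 81.7th and that of tps-1 at the 16.0th.

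**Figure D1:**
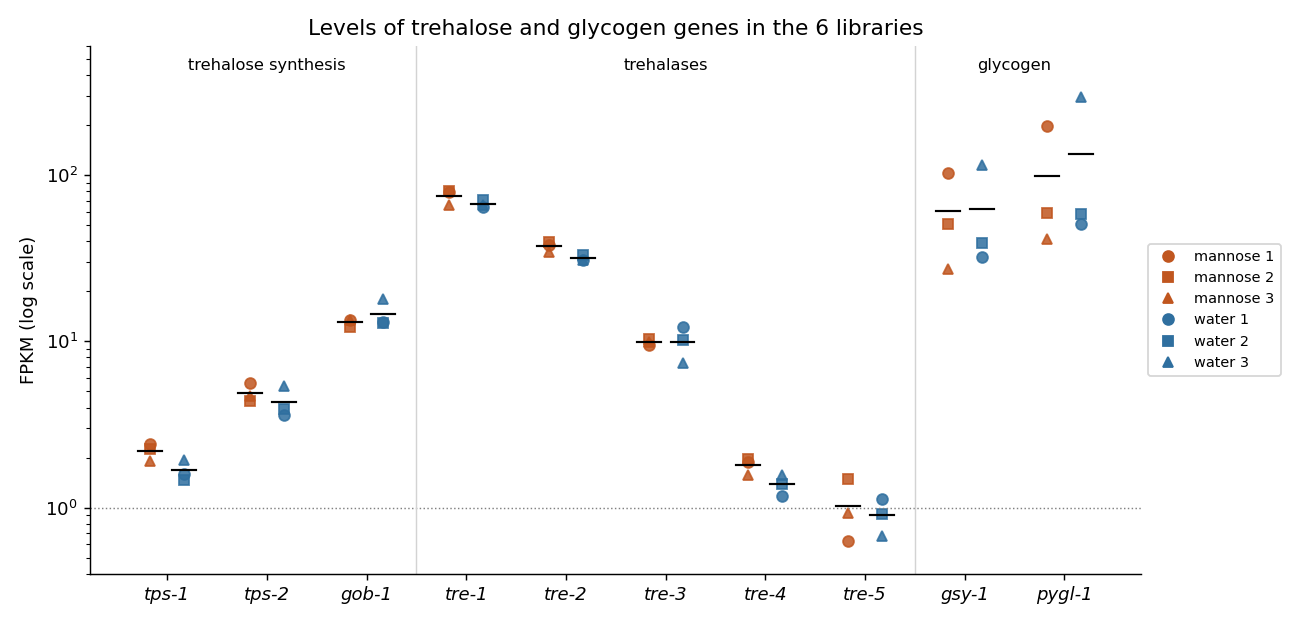
FPKM on a log axis of the 10 genes in each library, with mannose libraries on the left and water libraries on the right of each gene; point shapes give the library number, black bars are group means (n = 3) and the dotted line marks 1 FPKM. The libraries of each trehalose gene lie closer together than those of gsy-1 and pygl-1. The latter genes are highest in mannose 1 and water 3 (198.5 and 295.3 FPKM for pygl-1).

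Mannose was set against water to see which storage sugar transcripts differ in worms given mannose. The test was limma on log2(FPKM + 1) for genes that reached 1 FPKM in 3 or more libraries, with p-values adjusted over all 11237 genes by the method of Benjamini and Hochberg and a threshold of 0.05. Of the 10 genes, 9 passed this filter, each with at least 1 FPKM in all 6 libraries, and tre-5, with 2 such libraries, did not. Of the 9 tested, 0 were called, as were 0 of all genes tested (0%) in the same test. None of the 9 had an unadjusted p under 0.05, against 532 (4.73%) of all genes tested. The limma-voom test on read equivalents also called 0 genes in all, with 535 at an unadjusted p under 0.05. Mannose exceeded water for 6 of the 9 and lay below it for 3 (median log2 difference 0.16), beside 54.5% higher and a median of 0.01 over all genes tested. All fold changes below are differences of log2(FPKM + 1), so those of low genes such as tps-1 and tre-4 are understated.

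The trehalose 6-phosphate synthase genes tps-1 and tps-2 were low in all 6 libraries and slightly higher on average in mannose, without passing the test. The gene tps-1 (WBcel235, chromosome X, 17467121 to 17474585, minus strand) had 2.42, 2.27 and 1.90 FPKM in mannose 1, 2 and 3, against 1.60, 1.47 and 1.95 FPKM in water 1, 2 and 3. The groups overlapped only because mannose 3 lay just under water 3. Its mean was 2.20 ± 0.268 FPKM in mannose and 1.67 ± 0.246 FPKM in water (SD, n = 3 each), a log2 fold change of 0.26 ± 0.13 (SE; limma adjusted p = 0.9999). It is covered by 281 to 416 reads a library, so the counting error alone is 4.90% to 5.97% of its value.

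Its paralog tps-2 (chromosome II, 14600902 to 14610554, plus strand) had 5.61, 4.40 and 4.69 FPKM in mannose 1, 2 and 3, against 3.60, 3.93 and 5.40 FPKM in water 1, 2 and 3. Here mannose 1 and water 3 were the 2 highest libraries, and the groups overlapped. The mean was 4.90 ± 0.636 FPKM in mannose and 4.31 ± 0.960 FPKM in water, with a log2 fold change of 0.16 ± 0.18 (SE). Within every library tps-2 was the more abundant synthase per kilobase, at 1.94 to 2.78 times the level of tps-1. The exons of tps-2 share 24 bases with arl-3 on the same strand, which averaged 0.138 FPKM.

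The phosphatase gene gob-1 completes trehalose synthesis, and worms that lack it accumulate trehalose 6-phosphate and arrest with a blocked gut. It lies on chromosome X, 15493602 to 15497504, plus strand. It had 13.5, 12.2 and 13.5 FPKM in mannose 1, 2 and 3, against 13.2, 13.0 and 17.9 FPKM in water 1, 2 and 3. The values were alike in 5 libraries and highest in water 3. The log2 fold change was −0.14 ± 0.18 (SE), and it was −0.0001 without water 3.

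The level of phosphatase relative to synthase was lower in each mannose library than in any water library. The level of gob-1 was 1.68, 1.83 and 2.05 times the summed level of tps-1 and tps-2 in mannose 1, 2 and 3, against 2.53, 2.40 and 2.44 times in water 1, 2 and 3. These ranges did not overlap. The gob-1 ratio was picked out after its values were seen, among 14 sums and ratios computed, and it carries no test. It was not alone in separating the groups. The tre-2 share of the trehalase sum also did so, narrowly, with a lowest mannose value of 29.19% and a highest water value of 29.17%. So did gsy-1 over gyg-2, which reached at most 0.33119 with mannose and at least 0.33131 with water. Of all single genes tested, 10.7% did not overlap.

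The trehalases split into abundant and scarce genes. The tables annotate tre-1 and tre-5 as integral membrane proteins, tre-2 as extracellular, and tre-3 and tre-4 as anchored in the plasma membrane. The gene tre-1 (chromosome I, 6554729 to 6558665, plus strand) had 79.7, 80.2 and 66.1 FPKM in mannose 1, 2 and 3, against 64.3, 70.7 and 65.7 FPKM in water 1, 2 and 3. Mannose 1 and 2 lay above all 3 water libraries and mannose 3 among them. Its log2 fold change was 0.16 ± 0.13 (SE), with a 95% interval of −0.14 to 0.47.

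The gene tre-2 (chromosome IV, 6876731 to 6883442, minus strand) was the only 1 of the 10 genes whose groups did not overlap. Of all genes tested, 10.7% did not overlap, 5.42% with mannose higher, as for tre-2, and 5.31% with mannose lower. It had 37.8, 39.7 and 34.6 FPKM in mannose 1, 2 and 3, against 30.8, 33.2 and 31.1 FPKM in water 1, 2 and 3. The lowest mannose library thus lay just above the highest water library. Its mean was 37.4 ± 2.58 FPKM in mannose and 31.7 ± 1.30 FPKM in water (SD, n = 3 each), a log2 fold change of 0.23 ± 0.13 (SE), and the difference did not pass the test (limma adjusted p = 0.9999). The 95% interval was −0.08 to 0.54. The collagen gene col-19 also differed between the groups without overlap, in the other direction, and its part in these values was not tested.

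The genes tre-1 and tre-2 kept nearly the same proportion in all libraries. The level of tre-1 was 1.91 to 2.11 times that of tre-2 in mannose and 2.09 to 2.13 times in water. Together they made up most of the trehalase RNA, since tre-1 held 58.4% to 61.7% and tre-2 28.1% to 30.6% of the summed FPKM of the 5 genes.

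The other trehalase genes were lower. The gene tre-3 (chromosome V, 11709769 to 11715903, minus strand) had 9.50, 10.3 and 9.98 FPKM in mannose 1, 2 and 3, against 12.2, 10.2 and 7.45 FPKM in water 1, 2 and 3. The water libraries enclosed the mannose ones, and mannose 1 and water 3 were the 2 lowest, as for 21.5% of all genes tested. The log2 fold change was 0.02 ± 0.20 (SE). Without mannose 1 and water 3 it was −0.13, and without water 3 alone −0.15.

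The gene tre-4 (chromosome X, 13472155 to 13475931, plus strand) had 1.88, 1.97 and 1.57 FPKM in mannose 1, 2 and 3, against 1.18, 1.39 and 1.58 FPKM in water 1, 2 and 3. The groups touched at mannose 3 and water 3, and the log2 fold change was 0.24 ± 0.12 (SE). It rests on 113 to 163 reads a library, and its exons share 51 bases (2.58%) with efn-3 on the opposite strand, which averaged 12.1 FPKM. The labels do not say whether reads were counted by strand.

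The gene tre-5 (chromosome II, 52997 to 55304, minus strand) was near the limit of the measurement and was not tested. It had 0.632, 1.49 and 0.925 FPKM in mannose 1, 2 and 3, against 1.12, 0.912 and 0.671 FPKM in water 1, 2 and 3, from 51 to 132 reads a library. Mannose 1 and water 3 were its 2 lowest libraries.

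The glycogen genes gsy-1 and pygl-1 varied far more between libraries than between the groups. They were the only genes of the 9 to span at least 1 log2 unit over the libraries, as 23.3% of all genes tested did. The gene gsy-1 (chromosome II, 12866446 to 12878121, minus strand) had 103.4, 51.2 and 27.4 FPKM in mannose 1, 2 and 3, against 32.2, 39.2 and 115.3 FPKM in water 1, 2 and 3. The highest library of either group held 4.20 times the level of the lowest, and the groups overlapped throughout. Mean levels were 60.7 ± 38.9 FPKM in mannose and 62.2 ± 46.1 FPKM in water (SD, n = 3 each), a log2 fold change of −0.002 ± 0.65 (SE).

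The gene pygl-1 (chromosome V, 3579023 to 3585042, plus strand) had 198.5, 58.9 and 41.1 FPKM in mannose 1, 2 and 3, against 51.0, 58.2 and 295.3 FPKM in water 1, 2 and 3. Its highest value was 7.18 times its lowest. The log2 fold change was −0.29 ± 0.87 (SE), and the 95% interval, −2.41 to 1.83, corresponds to 0.189 to 3.57 times on the FPKM + 1 scale. The sign depended on single libraries. Leaving out 1 library at a time gave −0.95 to 0.52 for pygl-1, with the lowest value without mannose 1 and the highest without water 3, and −0.48 to 0.55 for gsy-1, at the same libraries. Without both mannose 1 and water 3 the log2 fold change was 0.08 ± 0.31 (SE) for gsy-1 and −0.14 ± 0.20 for pygl-1.

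**Figure D2:**
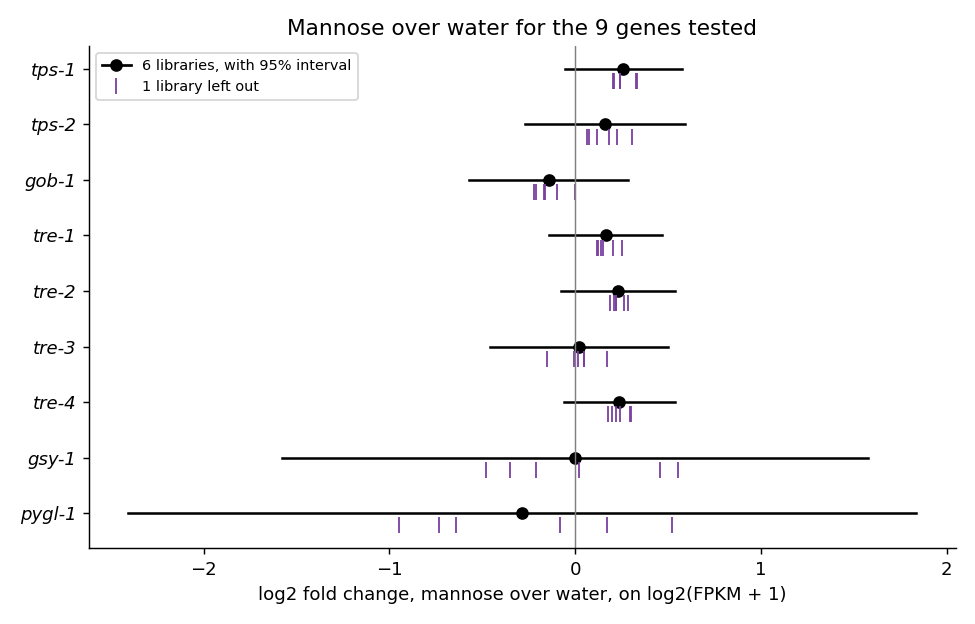
Log2 fold change of mannose over water on log2(FPKM + 1) for the 9 genes tested; dots and lines are the limma estimate and its 95% interval from 6 libraries, and purple ticks are the estimates with 1 library left out. All 9 intervals include 0, and those of gsy-1 and pygl-1 are the widest.

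Mannose 1 and water 3 were also taken as a separate pair, with 1 library of each group. How many of all genes tested kept their sign between the pair and the other 4 libraries was not computed. The 9 genes are therefore not counted that way. Mannose 1 differed from water 3 by 0.22 log2 units for tps-1, 0.05 for tps-2, 0.27 for tre-1, 0.28 for tre-2 and 0.16 for tre-4. The difference was −0.39 for gob-1, −0.57 for pygl-1, 0.31 for tre-3 and −0.16 for gsy-1. The fit without the pair gave 0.28 for tps-1, 0.22 for tps-2, 0.11 for tre-1, 0.21 for tre-2 and 0.28 for tre-4. It gave −0.02 ± 0.16 (SE) for gob-1, −0.14 for pygl-1, −0.13 for tre-3 and 0.08 for gsy-1. With a model term for the pair, the standard error was 0.16 for pygl-1, 0.22 for gsy-1 and 0.11 for tps-1, against 0.87, 0.65 and 0.13 without the term. The adjusted p of the 9 genes was then 0.39 to 0.998, so none was called. The pair was set apart on earlier results of these data. The standard errors and adjusted p-values of the fit with the term may therefore be too small.

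The pattern of gsy-1 and pygl-1 over the libraries was found in part of the other glycogen genes listed and in few trehalose genes. Mannose 1 and water 3 were the 2 highest libraries for 7 of the 11 other glycogen genes listed, or for 5 of 9 without aagr-3 and aagr-4, which the tables match to a glucosidase of the endoplasmic reticulum. They were the 2 highest for 1 of the 7 trehalose genes tested (tps-2), beside 28.6% of all genes tested. For 3 of the 11 other glycogen genes (gyg-2, agl-1 and gsk-3) and 0 of the 7 trehalose genes, the lower of these libraries was at least 1.5 times the next highest, beside 10.8% of all genes tested. That ratio was 3.37 for pygl-1 and 2.02 for gsy-1. The oocyte markers moved with these genes over the libraries, 6 of 8 by at least 1.5 times, and their part in the levels of gsy-1 and pygl-1 was not tested.

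**Figure D3:**
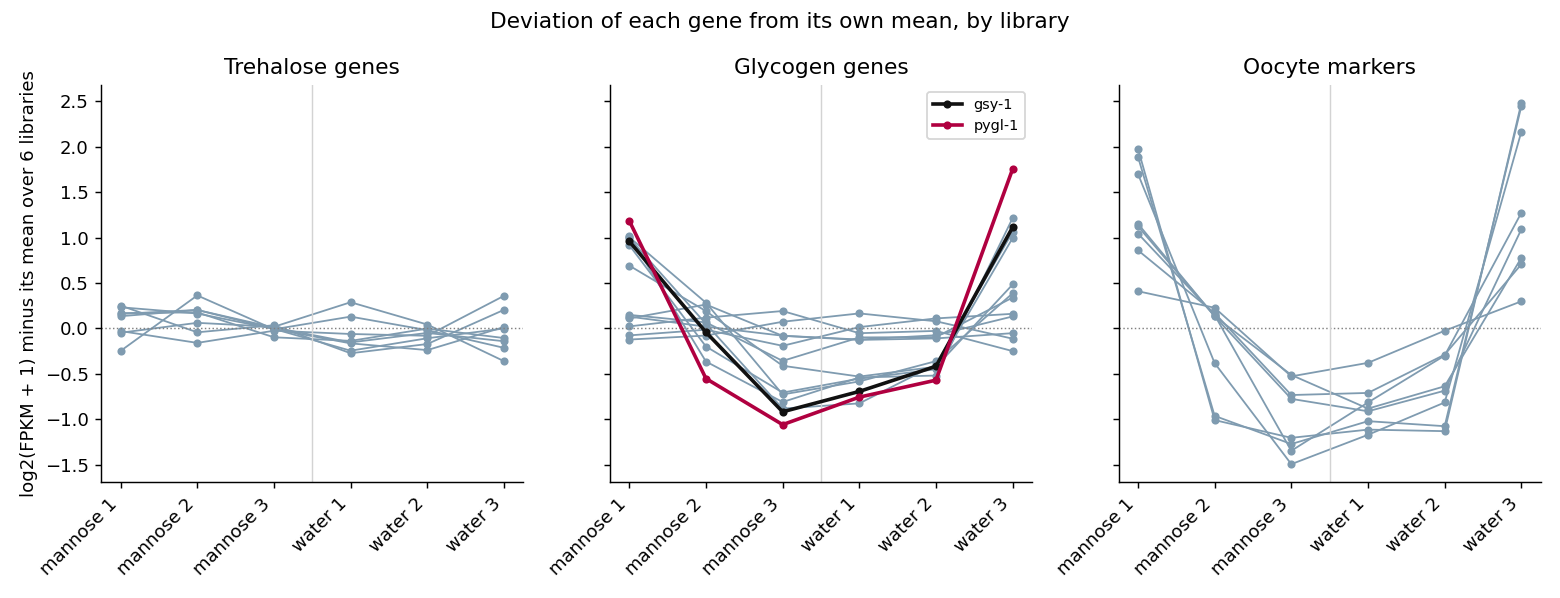
log2(FPKM + 1) of each gene minus its own mean over the 6 libraries, in library order, for the 8 trehalose genes, the 13 glycogen genes with gsy-1 (black) and pygl-1 (red), and the 8 oocyte markers. The trehalose genes stay near 0, whereas gsy-1, pygl-1 and part of the glycogen genes are high in mannose 1 and water 3 as the oocyte markers are.

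Among the other glycogen genes, which were singled out here after their values were seen, the glycogenin-like gene gyg-2 had 312.2, 161.7 and 84.3 FPKM in mannose 1, 2 and 3, against 87.7, 118.4 and 327.1 FPKM in water 1, 2 and 3. It followed gsy-1 closely: gsy-1 had 0.316 to 0.331 times the level of gyg-2 in mannose and 0.331 to 0.367 times in water. By contrast gyg-1, the other glycogenin gene, had 27.3, 28.2 and 31.4 FPKM in mannose 1, 2 and 3, against 33.5, 31.5 and 27.5 FPKM in water 1, 2 and 3, and was lowest in mannose 1 and water 3. The debranching enzyme gene agl-1 had 12.2, 4.07 and 2.72 FPKM in mannose 1, 2 and 3, against 3.49, 3.55 and 14.1 FPKM in water 1, 2 and 3. The level of pygl-1, its partner in glycogen breakdown, was 14.5 to 16.2 times that of agl-1 in mannose and 14.6 to 20.9 times in water.

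The gene T04A8.7, annotated by its match to mouse glycogen branching enzyme, had 104.7, 63.1 and 30.9 FPKM in mannose 1, 2 and 3, against 34.2, 40.1 and 67.9 FPKM in water 1, 2 and 3. The kinase gene gsk-3, whose mammalian counterpart phosphorylates glycogen synthase, had 23.7, 10.4 and 7.03 FPKM in mannose 1, 2 and 3, against 7.93, 8.59 and 25.1 FPKM in water 1, 2 and 3. Phosphorylase kinase, which activates glycogen phosphorylase, varied less than these genes. Its predicted catalytic subunit gene Y50D7A.3 had 38.1, 35.9 and 26.5 FPKM in mannose 1, 2 and 3, against 31.9, 32.0 and 43.6 FPKM in water 1, 2 and 3. Mannose 1 and water 3 were again the 2 highest libraries.

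**Figure D4:**
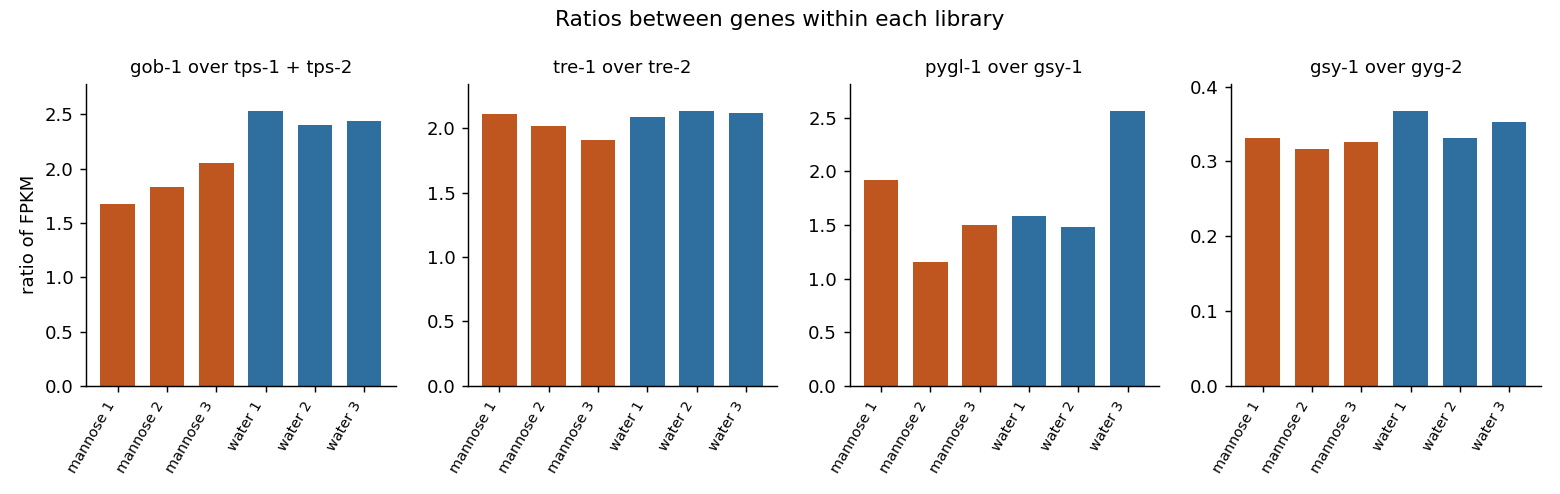
Ratios of FPKM within each library, with mannose libraries (orange) left of water libraries (blue) and axes from 0. The gob-1 ratio lies between 1.68 and 2.05 in mannose libraries and between 2.40 and 2.53 in water libraries, the tre-1 to tre-2 and gsy-1 to gyg-2 ratios are nearly level over the libraries, and the pygl-1 to gsy-1 ratio is highest in mannose 1 and water 3.

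The ratio of pygl-1 to gsy-1, of breakdown to synthesis enzyme, was 1.92, 1.15 and 1.50 in mannose 1, 2 and 3, against 1.58, 1.48 and 2.56 in water 1, 2 and 3. It was thus highest in mannose 1 and water 3, where both genes were also highest. The trehalases together had 129.5, 133.7 and 113.2 FPKM in mannose 1, 2 and 3, against 109.6, 116.4 and 106.5 FPKM in water 1, 2 and 3, so the trehalase sum did not follow the glycogen genes.

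Of 33 genes of related pathways listed, 30 were tested and 0 passed the test. Mannose exceeded water for 7 of the 11 other glycogen genes and lay below it for 4 (median log2 difference 0.04). Those with the smallest p were aagr-2 and aagr-1, of the acid alpha-glucosidase related family, and C14B9.8, a probable regulatory subunit of phosphorylase kinase. The gene aagr-2 had 73.6 ± 4.36 FPKM in mannose and 63.1 ± 5.27 FPKM in water, aagr-1 had 4.66 ± 0.349 FPKM in mannose and 5.45 ± 0.329 FPKM in water, and C14B9.8 had 23.5 ± 2.91 FPKM in mannose and 20.3 ± 0.580 FPKM in water (SD, n = 3 each). The groups of aagr-2 and aagr-1 did not overlap, with opposite signs, beside 10.7% of all genes tested.

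Of the 8 genes that supply hexose phosphates and UDP-glucose, 3 were higher and 5 lower in mannose (median log2 difference −0.01), and 7 had mannose 1 and water 3 as their 2 highest libraries. Those with the smallest p were D1005.2, a UDP-glucose pyrophosphorylase, with 1.49 ± 0.255 FPKM in mannose and 1.85 ± 0.282 FPKM in water, R05F9.6, a predicted phosphoglucomutase, with 136.3 ± 36.8 FPKM in mannose and 120.4 ± 30.4 FPKM in water, and the hexokinase gene hxk-1, with 113.5 ± 35.9 FPKM in mannose and 128.4 ± 40.8 FPKM in water. The second UDP-glucose pyrophosphorylase gene, K08E3.5 (chosen after its values were seen), makes the donor sugar of gsy-1, tps-1 and tps-2. It had 236.0, 131.1 and 72.0 FPKM in mannose 1, 2 and 3, against 82.7, 97.8 and 294.0 FPKM in water 1, 2 and 3, and so varied with gsy-1, whereas D1005.2 was not highest in these libraries.

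Of the 5 genes of the glyoxylate cycle and gluconeogenesis, through which worms turn fat into sugar, 1 was higher and 4 lower in mannose (median log2 difference −0.20). Without mannose 1 and water 3 the median was −0.04, again with 1 higher and 4 lower. These libraries were the 2 highest for 2 of the 5 genes (pck-2 and pyc-1), beside 28.6% of all genes tested. The phosphoenolpyruvate carboxykinase genes pck-1 and pck-2 had 29.6 ± 3.54 and 149.1 ± 12.1 FPKM in mannose, against 35.4 ± 0.872 and 175.2 ± 37.8 FPKM in water, and the isocitrate lyase gene icl-1 had 32.0 ± 5.79 FPKM in mannose and 36.7 ± 3.70 FPKM in water. The groups of pck-1 did not overlap, as for 10.7% of all genes tested.

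Of the 9 genes of the response to salt and drying, with which trehalose synthesis is linked, 6 were tested, 3 higher and 3 lower in mannose (median log2 difference −0.05). The gene osm-11, whose loss makes worms resistant to high salt, had 84.6, 75.0 and 78.7 FPKM in mannose 1, 2 and 3, against 112.9, 97.9 and 148.3 FPKM in water 1, 2 and 3. Its groups did not overlap, as for 10.7% of all genes tested, and its log2 fold change of −0.57 ± 0.17 (SE) did not pass (limma adjusted p = 0.9999). The collagen gene col-19 was likewise lower in every mannose library than in any water library, and its part in the osm-11 values was not tested. The glycerol 3-phosphate dehydrogenase gene gpdh-2 had 110.3 ± 2.31 FPKM in mannose and 101.6 ± 7.27 FPKM in water, also without overlap but with mannose higher, and osm-7 had 2.20 ± 0.238 FPKM in mannose and 2.87 ± 0.969 FPKM in water. The genes hmit-1.1, hmit-1.2 and osm-8 were under the filter.

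For the genes that spanned at least 1 log2 unit over the libraries, gsy-1 and pygl-1, the tested gene with the most alike pattern was sought, by the largest difference in any of the 6 libraries after each gene was centred on its own mean. For gsy-1 it was umps-1, which encodes uridine monophosphate synthase, with a largest difference of 0.06 log2 units. It had 97.1, 47.7 and 24.3 FPKM in mannose 1, 2 and 3, against 30.4, 35.7 and 106.9 FPKM in water 1, 2 and 3. For pygl-1 it was Y53F4B.9, which the tables leave without a described function, with 0.10 log2 units. It had 21.8, 5.18 and 3.41 FPKM in mannose 1, 2 and 3, against 4.61, 5.37 and 29.7 FPKM in water 1, 2 and 3. With 11237 genes compared over 6 libraries, close matches are to be found for many patterns.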

How the data were processed

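The authors deposited 1 table per library with 1 value per gene for 47656 genes, on WBcel235. No label names the unit, but the values deposited by the authors behave as FPKM: multiplied by gene length, 95.0% to 95.8% of those worth up to 20 reads came within 0.05 read of a whole number of reads. This also turned FPKM into read equivalents. Per the submitters' processing notes, reads went through cutadapt, FastQC and HISAT2 2.1.0; the sources used here do not give the counting tool. In place of a count test, limma 3.58.1 (R 4.3.3, trend and robust settings) was run on log2(FPKM + 1) over 11237 genes. The fit was first tested on simulated data with noise independent between genes and libraries. The simulation does not cover a shift shared by many genes, such as that of mannose 1 and water 3. Overlaps of exons were taken from Ensembl release 115 for the same assembly. Per gene, counting errors are the inverse square root of the reads and cover counting only. The 10 genes, the lists and the alternatives were chosen with earlier results of these data known. The rule for names took all 10 genes, the 3 with the smallest p of each other list, and the gene most alike in pattern to each gene spanning 1 log2 unit.

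Markers listed for other tissues summed, in mannose and in water, to 141.6 to 240.3 and 221.4 to 359.1 FPKM (sperm, 6 genes), 208.8 to 295.2 and 242.3 to 368.4 (body wall muscle, 3), 93.0 to 164.4 and 86.1 to 196.4 (neurons, 4) and 1.12 to 2.38 and 2.26 to 3.02 (pharynx, 3). Nearly all of the neuron sum is snb-1 (156.1 FPKM in mannose 1 and 189.8 FPKM in water 3), which was highest in these libraries. By contrast unc-64 and rgef-1 were lowest in them, and rab-3 was neither.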

Additional observations from a re-analysis of the deposited data

How the results depend on the processing

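None of the 9 tested genes was called under any of the 14 alternatives. Their lowest limma adjusted p was 0.39, with the term for mannose 1 and water 3, a pair chosen on earlier results of these data. The gene tre-5 was tested only in the alternative without a filter on level, where 0 of the 10 genes were called. Under the alternatives 10 values of the 9 tested genes changed sign, all for tre-3, gsy-1 or pygl-1. The value of tre-5, 0.07 and untested in the main fit, also changed sign. It was −0.09 without mannose 2 and −0.02 without water 3, a change of less than the spread between replicates. The log2 fold change of tre-3 was −0.039 with upper-quartile scaling (median of all genes −0.03, with 4772 higher and 6465 lower in mannose, against 0.01, 6127 and 5110 with the deposited scaling) and −0.13 without mannose 1 and water 3; that of gsy-1 was 0.075 without mannose 1 and water 3. Leaving out 1 library at a time gave −0.15 to 0.17 for tre-3, −0.48 to 0.55 for gsy-1 and −0.95 to 0.52 for pygl-1, against 0.21 to 0.33 for tps-1, 0.06 to 0.30 for tps-2, −0.22 to −0.0001 for gob-1, 0.12 to 0.25 for tre-1, 0.19 to 0.28 for tre-2 and 0.17 to 0.30 for tre-4. Over all genes, 3 were called without mannose 1 and water 3, and 0 to 2 when 1 library was left out. The cause was not tested. With the replicate block, 0 genes passed in limma, and unadjusted p-values under 0.05 numbered 164, against 532 without it. Same-numbered libraries did not deviate together in each pair (correlations of −0.74, 0.24 and −0.71 for numbers 1, 2 and 3). The shift shared by mannose 1 and water 3 (correlation 0.77) enters these values, so they cannot decide whether the numbers pair the libraries. Under the stricter filter tps-1, tps-2 and tre-4 had no value. Depth limits tre-5 (51 to 132 reads) and tre-4 (113 to 163 reads).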
